A study of Mus musculus with 6 samples.

Results

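Neat1, Malat1, Gas5, Snhg1 and Snhg12 are long noncoding RNAs, taken here by gene name from the table of 23398 genes. All 5 were found, each once, and all 5 passed the filter (1 FPKM or more in 3 or more libraries) that left 10682 genes to test. FPKM is the number of fragments per kilobase of transcript, relative to a scale for the library. Dendritic cells grown from the bone marrow of mice, in DMEM with serum, penicillin and streptomycin, had been given Ca(OH)2 nanoparticles (3 libraries) or vehicle (3 libraries) for 12 hours. The labels give no strain, age, sex, nanoparticle dose or growth factor, and do not say whether the 3 libraries of a group came from separate mice or cultures, so p-values measure only the spread between these libraries, which may be technical. Libraries are called vehicle 1 to 3 and nanoparticle 1 to 3, as numbered in the sample titles.

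Neat1 and Malat1 are transcribed from neighbouring genes and stay in the nucleus. Neat1 is the architectural RNA of paraspeckles, nuclear bodies that form around its long isoform. Malat1 gathers in nuclear speckles, which store splicing factors. The 3′ ends of Malat1 and of long Neat1 are not made by ordinary polyadenylation: a tRNA-like structure is cut off, and a triple helix of U-rich and A-rich stretches protects the end. Gas5, Snhg1 and Snhg12 carry small nucleolar RNAs (snoRNAs) in their introns. The snoRNAs guide chemical modification of ribosomal RNA, while the spliced host RNA is usually short-lived, being translated briefly and removed by nonsense-mediated decay. Many hosts begin with a terminal oligopyrimidine (TOP) tract, a run of C and T bases at the start site that they share with mRNAs of ribosomal proteins and translation factors.

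Sequences are shown first for the start sites, because the hosts are described below beside genes with TOP mRNAs. In the RefSeq table (GRCm38.p6), 4 of the 5 genes had an entry (Neat1 did not). Each line gives 40 bases before the start and 50 from the start on, 5′ to 3′ on the gene's strand, with the run of C and T that covers the first transcribed base in capitals.
Gas5, upstream start, chr1:161034561-161034650, plus strand: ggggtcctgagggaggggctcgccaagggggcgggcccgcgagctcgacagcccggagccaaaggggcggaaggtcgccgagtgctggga
Gas5, downstream start, chr1:161035126-161035215, plus strand: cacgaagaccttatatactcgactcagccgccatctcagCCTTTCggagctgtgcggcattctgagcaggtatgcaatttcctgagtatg
Snhg1, chr19:8723447-8723536, plus strand: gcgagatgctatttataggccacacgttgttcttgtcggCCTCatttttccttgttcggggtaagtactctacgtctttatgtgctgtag
Snhg12, chr4:132308638-132308727, plus strand: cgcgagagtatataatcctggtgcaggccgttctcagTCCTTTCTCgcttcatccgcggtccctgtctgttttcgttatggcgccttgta
Malat1, chr19:5802623-5802712, minus strand: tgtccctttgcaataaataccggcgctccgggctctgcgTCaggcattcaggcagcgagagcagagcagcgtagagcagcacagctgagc
The run held 6 bases at the downstream start of Gas5, 9 at Snhg12, 4 at Snhg1, 2 at Malat1 and 0 at the upstream start of Gas5. With the first transcribed base as 0, the runs began at -1 for Gas5, Snhg1 and Malat1 and at -3 for Snhg12. These lengths thus include bases before the annotated RNA. Of the 32851 start windows in the table, 14.0% had a run of at least 4 bases, 7.25% of at least 6 and 3.03% of at least 9. The annotation cannot say which start was used in these cells.

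The annotated ends of the nuclear RNAs are shown because they bear on what a library can capture. These are the last 100 bases of the longest transcripts in GENCODE M21 (GRCm38, minus strand), with 3 stretches of the Neat1 end in capitals: the U-rich TTTCTTTT and TTTTGCTTTT and the A-rich AAAAAGCAAAA. They were read from this end, so its own match is by construction, and were searched on the transcript strand alone, beside the small RNA gene that follows Neat1 with no gap.
Neat1-201 end, chr19:5824708-5824807: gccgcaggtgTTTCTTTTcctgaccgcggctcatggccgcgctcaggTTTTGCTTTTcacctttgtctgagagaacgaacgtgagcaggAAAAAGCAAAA
Gm27702, chr19:5824652-5824707: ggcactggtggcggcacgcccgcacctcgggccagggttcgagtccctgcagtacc
Malat1-201 end, chr19:5795690-5795789: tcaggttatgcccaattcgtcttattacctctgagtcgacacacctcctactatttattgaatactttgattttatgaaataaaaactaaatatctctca
Of the 139316 transcripts of at least 100 bases, the last 100 bases held TTTCTTTT in 1.16%, TTTTGCTTTT in 0.0840% and AAAAAGCAAAA in 0.0459%, and 1 transcript, Neat1-201 itself, held all 3. The Malat1 model held none of these Neat1 stretches in this window. Whether its annotated end is the processed end was not tested, and sequence further inside the model was not searched. The annotated small RNA after Neat1 had 0, 3 and 2 recovered reads in vehicle and 0, 8 and 2 in nanoparticle libraries 1 to 3. Of these 6 counts, 5 are no higher than the floor of 3 reads, and no direction is read from the fitted log2 change (0.48, limma adjusted p = 0.713, or 1.598 and 0.041 with array weights).

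Within the bounds of the hosts, on their strand, lie 23 annotated snoRNA genes, 10 in Gas5, 8 in Snhg1 and 5 in Snhg12. None of the 23 has a row among the values analysed here. An example of the box C/D kind from each host is shown, and these do not stand for all 23. Matches to the letters of box C (TGATGA) and box D (CTGA) on the RNA strand are in capitals. A match by letters, such as the internal CTGA of Gm25855, need not be a working box.
Snord47 in Gas5, chr1:161038082-161038158, plus strand: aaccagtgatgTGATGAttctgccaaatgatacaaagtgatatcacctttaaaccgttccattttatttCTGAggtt
Gm25855 in Snhg1, chr19:8723993-8724064, plus strand: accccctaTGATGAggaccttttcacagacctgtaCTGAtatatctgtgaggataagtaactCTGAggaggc
Snord99 in Snhg12, chr4:132310691-132310764, plus strand: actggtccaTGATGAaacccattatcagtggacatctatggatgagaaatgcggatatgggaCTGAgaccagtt
Both sets of letters occur in 25.2% of the 1507 annotated snoRNA transcripts, which include box H/ACA RNAs.

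Recovered depth was 17287057 to 18224014 reads in the vehicle libraries and 17794242 to 21981316 in the nanoparticle libraries. Nanoparticle 1 stood apart from its group: the chi-square per degree of freedom between recovered reads was 173 and 231 against nanoparticle 2 and 3, 11.8 between those, and 2.85 to 5.34 between vehicle libraries. The changes of the 5 RNAs and the counts of each gene list are therefore given with and without nanoparticle 1. The dendritic cell markers Itgax (442 to 456 FPKM in vehicle, 248 to 398 with nanoparticles), Cd74 and H2-Ab1 were high in all libraries, while Flt3 and Siglech stayed under 1 FPKM in all 6 and Cd209a was at 5.17 to 6.21 FPKM in vehicle and at most 0.0763 with nanoparticles. Of 13 macrophage markers 11 were at 1 FPKM or more in at least 3 libraries. Lymphocyte (11 genes) and erythroid (5 genes with a row) markers summed to at most 0.505 and 0.787 FPKM. The 15 neutrophil markers summed to 276 to 309 FPKM in vehicle and to 246, 333 and 344 FPKM in nanoparticle libraries 1 to 3. Ly6g, Mpo, Elane and 4 others were under 1 FPKM in all 6. These sums join opposite changes of single markers. Mmp8, most of the vehicle sum, was at 230 to 259 FPKM in vehicle and at 129 to 133 FPKM with nanoparticles. Lcn2 was at most 0.346 FPKM in vehicle and at 46.4 to 52.5 FPKM with nanoparticles. S100a8 was at most 35.96 FPKM in vehicle and at 50.1, 90.3 and 109 FPKM in nanoparticle libraries 1 to 3. Mast cell and basophil markers (9 with a row) summed to 3.93 to 6.16 FPKM in vehicle and to 26.1, 11.05 and 10.3 FPKM in nanoparticle libraries 1 to 3. Most of the nanoparticle sums came from Hdc (24.1, 6.69 and 6.76 FPKM). In bulk RNA, fewer cells of a type and less RNA per cell cannot be told apart.

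None of the 5 RNAs passed a limma adjusted p of 0.05 with all 6 libraries, where 33.2% of the 10682 tested genes did (3550 genes). An unadjusted limma p under 0.05 was reached by 1 of them, Snhg1, and by 4743 of the 10682 tested genes. The limma-voom fit on the recovered reads called 1, also Snhg1, where 44.5% of genes passed (10.1% higher, 34.4% lower). With array weights, which count nanoparticle 1 least, 2 passed as lower, Malat1 and Snhg1, where 67.7% of genes did (35.3% higher, 32.4% lower). By deposited FPKM, nanoparticle 1 held the highest level of the 6 libraries for both nuclear RNAs and the lowest for all 3 snoRNA hosts. Nanoparticle 1 was the highest library for 29.2% of tested genes and the lowest for 32.5%, together 61.7%, so an extreme value in this library was common. As a share of recovered reads, Neat1 in nanoparticle 1 (0.0765%) was no longer above vehicle 1 (0.0766%).

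**Figure D1:**
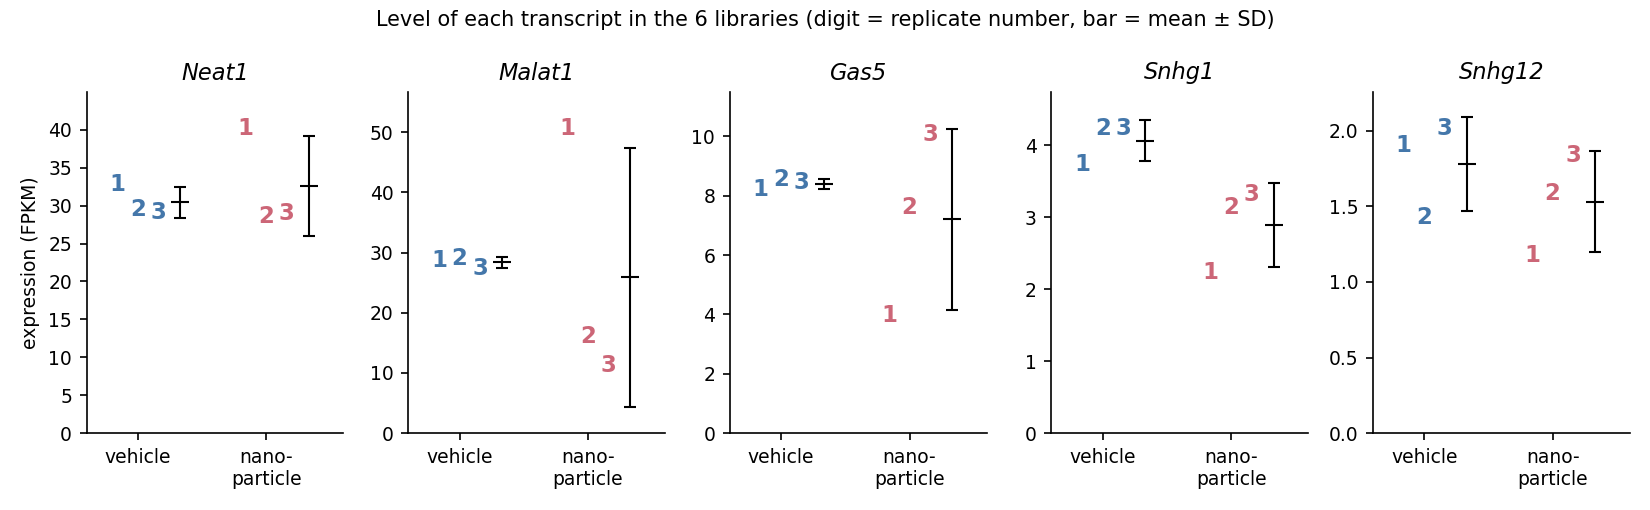
Expression in FPKM (y axes start at 0 and differ between panels) of the 5 RNAs in the 3 vehicle (blue) and 3 nanoparticle libraries (red); digits are replicate numbers and bars the mean ± SD. Nanoparticle 1 lies at the top for Neat1 (40.2) and Malat1 (50.6) and at the bottom for Gas5 (3.97), Snhg1 (2.23) and Snhg12 (1.17).

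Malat1 (ENSMUSG00000092341, a lincRNA gene at chr19:5795690-5802672 on the minus strand) was steady in vehicle, at 28.8, 29.1 and 27.3 FPKM. With nanoparticles it was at 50.6, 15.97 and 11.2 FPKM in libraries 1 to 3. Thus nanoparticle 1 lay above, and nanoparticle 2 and 3 below, every vehicle library. The means were 28.4 ± 0.939 and 25.9 ± 21.5 FPKM (SD, n = 3 each), and the log2 change on the log2(FPKM + 1) scale was -0.42 (SE 0.508, 95% confidence interval -1.64 to 0.81, limma adjusted p = 0.576). Without nanoparticle 1 the log2 change was -1.03 (SE 0.135, 95% confidence interval -1.35 to -0.71, limma adjusted p = 0.00073), in a fit where 64.8% of the tested genes passed (34.3% higher, 30.5% lower). Without nanoparticle 3 it was 0.01. The recovered reads, 1504 to 5769 per library, put the counting error of each value at 1.32% to 2.58%. The nanoparticle libraries spanned 4.53-fold, against 1.06-fold in vehicle. A span at least as wide on the log2(FPKM + 1) scale was found in 1.29% of tested genes (138 genes, counted after the values of Malat1 were seen).

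Neat1 (ENSMUSG00000092274, a lincRNA gene at chr19:5824708-5845478 on the minus strand) lies upstream of Malat1 on the same strand. It was at 32.8, 29.5 and 29.04 FPKM in vehicle and at 40.2, 28.5 and 28.97 FPKM in nanoparticle libraries 1 to 3. Only nanoparticle 1 left the vehicle range by more than 1 FPKM. The means were 30.4 ± 2.04 and 32.6 ± 6.59 FPKM (SD, n = 3 each), and the log2 change was 0.08 (SE 0.158, 95% confidence interval -0.30 to 0.46, limma adjusted p = 0.739). Without nanoparticle 1 it was -0.08 (95% confidence interval -0.24 to 0.09, limma adjusted p = 0.351). With 9805 to 13619 reads per library Neat1 was the most deeply counted of the 5, with a counting error of at most 1.01%. Like Malat1, Neat1 had nanoparticle 1 above and nanoparticle 2 and 3 below all vehicle libraries, an order that 8.23% of tested genes showed. For Neat1 the lower side rests on a difference of under 1 FPKM.

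The balance between the nuclear RNAs does not depend on the scaling of a library except through the added 1. The plain ratio of Neat1 to Malat1 FPKM was 1.14, 1.01 and 1.06 in vehicle, and 0.794, 1.79 and 2.59 in nanoparticle libraries 1 to 3. Relative to Malat1, Neat1 was thus higher in nanoparticle 2 and 3 and lower in nanoparticle 1 than in any vehicle library. The log2 ratio was 0.10 ± 0.08 in vehicle and 0.59 ± 0.83 with nanoparticles (SD, n = 3 each). A two-sided exact permutation test gave p = 0.4, or 0.6 after Benjamini-Hochberg adjustment over the 3 ratios tested, and 3 against 3 libraries cannot give less than 0.1. The difference in mean log2 ratio, 0.49, was 0.95 without nanoparticle 1 (exact permutation p = 0.1, also the smallest possible) and 0.14 without nanoparticle 3.

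Gas5 (ENSMUSG00000053332, annotated as a processed transcript at chr1:161034422-161038539 on the plus strand) was first known as a transcript that builds up in growth-arrested cells. It was at 8.21, 8.55 and 8.43 FPKM in vehicle and at 3.97, 7.60 and 10.05 FPKM in nanoparticle libraries 1 to 3. Nanoparticle 1 and 2 lay below the vehicle range and nanoparticle 3 above it. The means were 8.40 ± 0.171 and 7.21 ± 3.06 FPKM (SD, n = 3 each), with a log2 change of -0.27 (SE 0.283, 95% confidence interval -0.95 to 0.41, limma adjusted p = 0.511). Without nanoparticle 1 the log2 change was 0.05 (limma adjusted p = 0.688). The level in nanoparticle 1 rested on 244 reads, with a counting error of 6.40%, and was 0.473 times the vehicle mean. Gas5 overlaps the opposite-strand gene Zbtb37 by 428 bases. The strand setting of the count is not given in the sources used here, and Zbtb37 stayed at or under 0.405 FPKM.

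Snhg1 (ENSMUSG00000108414, annotated as a processed transcript at chr19:8723475-8726443 on the plus strand) was the member nearest to the threshold. It was at 3.74, 4.23 and 4.23 FPKM in vehicle and at 2.23, 3.13 and 3.32 FPKM in nanoparticle libraries 1 to 3. All 3 nanoparticle libraries lay below all 3 vehicle libraries, which makes Snhg1 the single member whose groups did not overlap. The groups did not overlap in 52.1% of tested genes, and in 26.2% they did so with the nanoparticle group lower. The means were 4.06 ± 0.284 and 2.89 ± 0.585 FPKM (SD, n = 3 each), with a log2 change of -0.39 (SE 0.138, 95% confidence interval -0.72 to -0.06, limma adjusted p = 0.075). Without nanoparticle 1 the log2 change was -0.26 and passed (limma adjusted p = 0.0298), as 64.8% of genes then did. Scaled by total recovered reads it was -0.66 (limma adjusted p = 0.0085), where 44.2% of genes passed (10.4% higher, 33.8% lower). Snhg1 rested on 108 to 262 reads per library.

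Snhg12 (ENSMUSG00000086290, a lincRNA gene at chr4:132308623-132311024 on the plus strand) had the lowest level. It was at 1.90, 1.43 and 2.01 FPKM in vehicle and at 1.17, 1.58 and 1.84 FPKM in nanoparticle libraries 1 to 3. Only nanoparticle 1 fell outside the vehicle range. The means were 1.78 ± 0.311 and 1.53 ± 0.335 FPKM (SD, n = 3 each), with a log2 change of -0.14 (SE 0.145, 95% confidence interval -0.49 to 0.21, limma adjusted p = 0.513), and of -0.03 without nanoparticle 1. With 46 to 101 reads per library, counting error alone was 9.95% to 14.7% of a value, near the vehicle coefficient of variation of 17.5%. A difference within that error was not detectable at this depth.

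**Figure D2:**
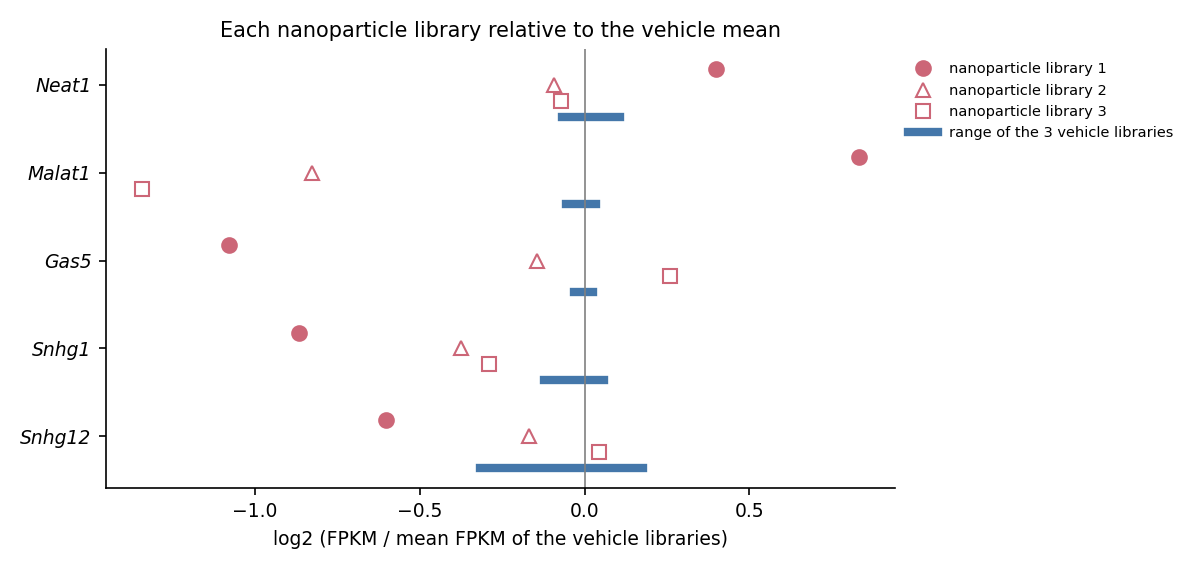
Log2 of each nanoparticle library's FPKM over the vehicle mean (symbols), with the range of the 3 vehicle libraries as a blue bar. Nanoparticle 1 (filled circles) lies right of 0 for Neat1 and Malat1 and left of 0 for the 3 snoRNA hosts, outside the bar in all 5.

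Ratios between hosts were compared in the same way, with the same limit on p. The plain ratio of Gas5 to Snhg1 FPKM was 2.20, 2.02 and 2.00 in vehicle and 1.78, 2.43 and 3.03 in nanoparticle libraries 1 to 3, with a difference in mean log2 ratio of 0.12 (exact permutation p = 0.7, adjusted p = 0.7, n = 3 per group). Without nanoparticle 1 that difference was 0.31, and without nanoparticle 3 it was -0.053. The ratio of Snhg1 to Snhg12 was 1.96, 2.96 and 2.10 in vehicle and 1.90, 1.98 and 1.81 with nanoparticles. The plain ratios of the groups overlapped, while on the log2 scale with 1 added to each FPKM all 3 nanoparticle ratios lay below the vehicle ones, a difference of -0.25 (exact permutation p = 0.1, the smallest this design can give, adjusted p = 0.3, n = 3 per group). Summed marker levels in nanoparticle 1 differed from the other libraries as well: the 13 dendritic cell markers summed to 3094 FPKM in nanoparticle 1, against 6323 and 6882 in nanoparticle 2 and 3 and 5411 to 5820 in vehicle. Most of that sum was Cd74 and H2-Ab1, while Irf8 (24.1 FPKM), Irf4 (44.7) and Xcr1 (2.21) were highest in nanoparticle 1. The 13 macrophage markers summed to 1294 FPKM in nanoparticle 1, 1086 and 1153 in nanoparticle 2 and 3, and 921 to 1049 in vehicle. The part of these shifts in the values of the 5 RNAs was not tested.

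**Figure D3:**
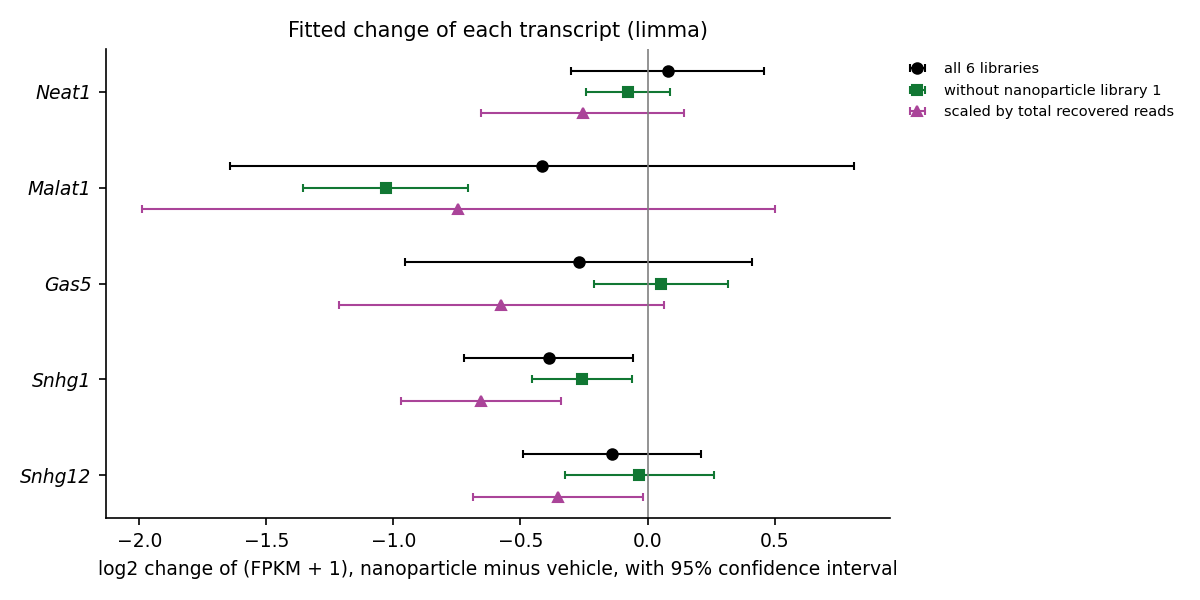
Fitted log2 change of FPKM + 1, nanoparticle minus vehicle, with 95% confidence intervals from limma, for all 6 libraries (black), without nanoparticle 1 (green) and with libraries scaled by total recovered reads (purple). Malat1 has the widest interval with all libraries (-1.64 to 0.81) and one wholly below 0 without nanoparticle 1; the intervals of Snhg1 lie below 0 in all 3 fits.

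For the 5 RNAs, the sizes of the changes and, for Neat1, the direction depend on the scaling. The scale of the deposited values is not proportional to read totals. Scaling by total recovered reads moved the median over all tested genes from 0.00 to -0.28 (log2). On that scale the log2 changes were -0.26 for Neat1, -0.74 for Malat1, -0.57 for Gas5, -0.66 for Snhg1 and -0.35 for Snhg12, so Neat1 changed sign and sat close to the median of all genes. Neat1 took 0.0766%, 0.0702% and 0.0691% of recovered reads in vehicle and 0.0765%, 0.0531% and 0.0527% in nanoparticle libraries 1 to 3. The 5 RNAs together took 0.0966% to 0.104% of reads in vehicle, 0.111% in nanoparticle 1, and 0.0669% and 0.0642% in nanoparticle 2 and 3. With libraries scaled to equal sums of FPKM 3 members passed, Gas5, Snhg1 and Snhg12, all lower, where 48.6% of genes passed (8.25% higher, 40.3% lower).

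The order of levels in vehicle was Neat1, Malat1, Gas5, Snhg1, Snhg12. Neat1 and Malat1 overlapped (29.04 to 32.8 against 27.3 to 29.1 FPKM), and each later neighbour in this order was separated from the next. In the nanoparticle group the range of Neat1 (28.5 to 40.2 FPKM) lay within that of Malat1 (11.2 to 50.6 FPKM). Malat1 was above Neat1 in nanoparticle 1 and below it in nanoparticle 2 and 3. Malat1 in nanoparticle 3 (11.2 FPKM) came near Gas5 (10.05 FPKM). The word abundant fits part of the set: by mean vehicle FPKM, Neat1 and Malat1 ranked 1338th and 1425th of the 10682 tested genes, Gas5 4266th, Snhg1 6649th and Snhg12 9128th. These ranks depend on the length by which reads were divided, which matched the merged exons of all annotated transcripts (20771 bases for Neat1, 6983 for Malat1, 3760 for Gas5, 2969 for Snhg1 and 2402 for Snhg12). For Gas5 and Snhg1 that length is mostly retained introns. Had all reads come from the longest transcript not annotated as a retained intron (665 bases for Gas5, 709 for Snhg1), the vehicle means would differ. They would be 47.5 ± 0.968 FPKM for Gas5 and 17.0 ± 1.19 for Snhg1 (SD, n = 3 each). Only under that condition would Gas5 stand above Malat1. If all Neat1 reads came from the annotated 3004-base transcript, its vehicle mean would be 210.4 FPKM. The files give 1 value per gene, so isoforms cannot be told apart.

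Neighbours on the chromosome gave a local comparison for 2 of the hosts. Snhg1 starts 105 bases from Slc3a2, a gene on the opposite strand that encodes the heavy chain of amino acid transporters. Slc3a2 was at 80.0, 81.5 and 78.3 FPKM in vehicle and at 247, 271 and 272 FPKM in nanoparticle libraries 1 to 3, which put the log2 change at 1.71 (SE 0.108, limma adjusted p = 0.00016), and at 1.75 without nanoparticle 1. This neighbour rose in every nanoparticle library while Snhg1 was lower in every one. Trnau1ap, a selenocysteine tRNA factor gene 738 bases from Snhg12, had a log2 change of 0.25 and did not pass (limma adjusted p = 0.46). It passed without nanoparticle 1 (0.50, limma adjusted p = 0.0065) and with array weights (0.55, limma adjusted p = 0.0033).

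The list counts that follow stand against 17.0% of all tested genes higher and 16.2% lower with all libraries, 34.3% and 30.5% without nanoparticle 1, and 10.4% and 33.8% with total-read scaling. Among 20 listed snoRNA host lncRNAs, 16 had a row and 12 were tested, Gas5, Snhg1 and Snhg12 among them. Of the 12, 2 were higher, 0 lower and 10 did not pass, against 33.2% called among all genes, and the list median log2 change was 0.07 (all genes 0.00). Snhg6 rose, from 9.46, 12.5 and 11.4 FPKM in vehicle to 15.9, 22.4 and 22.8 FPKM (log2 change 0.81, SE 0.174, limma adjusted p = 0.014). For Zfas1 the means were 2.51 ± 0.129 and 5.25 ± 1.06 FPKM (SD, n = 3 each), a rise of 0.82 on the log2 scale (limma adjusted p = 0.0061). Their levels in nanoparticle 1 were the lowest of their group, as they were for the 3 hosts described above, but still exceeded every vehicle library. Without nanoparticle 1 the counts were 4 higher and 1 lower, and with total-read scaling 1 higher and 2 lower, where Snhg6 no longer passed (limma adjusted p = 0.055).

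Of 22 listed protein-coding snoRNA hosts all were tested; 2 were higher and 3 lower, and the median was -0.13. Hspa8, a chaperone gene, rose (323 ± 10.8 to 506 ± 44.9 FPKM, limma adjusted p = 0.012), as did Eif4a2, an RNA helicase gene of translation initiation (23.3 ± 0.745 to 31.05 ± 0.322 FPKM, limma adjusted p = 0.016, SD, n = 3 each). Nop58 and Dkc1, which encode core proteins of box C/D and box H/ACA particles, fell. Without nanoparticle 1, 14 were higher and 4 lower (34.3% and 30.5% of all genes), while total-read scaling gave 0 higher and 4 lower (10.4% and 33.8%).

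Of 16 tested genes for proteins of the snoRNA particles, 0 were higher and 6 lower (median -0.24), against 17.0% and 16.2% of all genes. Dkc1, the pseudouridine synthase, fell from 5.53, 5.62 and 5.69 FPKM in vehicle to 1.16, 2.04 and 1.91 FPKM (log2 change -1.31, SE 0.149, limma adjusted p = 0.0012). Nop58 fell from 4.09 ± 0.286 to 2.16 ± 0.0631 FPKM, the assembly factor gene Naf1 from 4.89 ± 0.182 to 2.75 ± 0.454 FPKM and Nolc1 from 12.1 ± 0.201 to 7.78 ± 0.919 FPKM (SD, n = 3 each; limma adjusted p = 0.0023, 0.0067 and 0.0076). These 4 also passed as lower without nanoparticle 1 and with total-read scaling. The list counts were then 7 higher and 7 lower (34.3% and 30.5% of all genes), and 0 higher and 8 lower (10.4% and 33.8%).

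Among genes for translation factors with TOP mRNAs, the 3 named here also had their lowest value in nanoparticle 1, as 32.5% of all tested genes did. Of the listed genes, Pabpc1 and Eif3e did not. Eef1a1, the elongation factor that delivers tRNA to the ribosome, was at 1354, 1411 and 1416 FPKM in vehicle and 691, 1544 and 1526 FPKM with nanoparticles (log2 change -0.24, limma adjusted p = 0.622). Tpt1 was at 403 to 415 FPKM in vehicle and at 302, 500.1 and 572 FPKM with nanoparticles (limma adjusted p = 0.778). Without nanoparticle 1 both passed as higher, Eef1a1 by 0.14 (limma adjusted p = 0.04987) and Tpt1 by 0.38 (limma adjusted p = 0.0028) on the log2 scale, and with total-read scaling both were below 0 (-0.59 and -0.24) and did not pass. Eif4b, an initiation factor gene, fell from 42.01, 45.5 and 44.7 FPKM to 27.5, 32.3 and 30.8 FPKM (limma adjusted p = 0.011) and was the single called gene of 15 (median -0.13). Without nanoparticle 1 the list had 10 higher and 2 lower, and with total-read scaling 0 higher and 3 lower.

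Of 19 genes for nonsense-mediated decay factors, the machinery that removes spliced hosts, 1 was higher and 0 lower (median 0.10), where 33.2% of all genes were called. That gene was Smg9, a regulator of the kinase that starts decay, which rose (limma adjusted p = 0.0086) from 5.46 ± 0.435 to 8.48 ± 0.663 FPKM (SD, n = 3 each). Eif4a3, of the exon junction complex, was at 31.8 to 32.6 FPKM in vehicle and at 22.8, 39.2 and 39.9 FPKM with nanoparticles (limma adjusted p = 0.922), and passed as higher without nanoparticle 1 (log2 change 0.29, limma adjusted p = 0.0024). Pnrc2, which links decay to decapping, was at 29.2 to 30.3 FPKM and at 19.2, 24.4 and 25.96 FPKM (limma adjusted p = 0.089), and passed as lower without nanoparticle 1 (-0.23, limma adjusted p = 0.011) and with total-read scaling (-0.69, limma adjusted p = 0.0056). Without nanoparticle 1, 6 were higher and 5 lower, where 64.8% of all genes were called. With total-read scaling 0 were higher and 6 lower, and Smg9 no longer passed.

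Paraspeckle proteins, the partners of Neat1, had 1 gene higher and 0 lower of 18 (median -0.13). Hnrnph3, an RNA-binding protein gene, rose from 4.76, 5.43 and 4.83 FPKM to 9.41, 13.4 and 13.2 FPKM (log2 change 1.10, SE 0.153, limma adjusted p = 0.0026). Hnrnpa1 was at 58.7 to 70.5 FPKM in vehicle and at 29.2, 52.0 and 59.5 FPKM with nanoparticles, and Hnrnpk at 58.1 to 59.3 and at 46.8, 65.4 and 64.8 FPKM. Neither passed (limma adjusted p = 0.172 and 0.970). Without nanoparticle 1 Hnrnpk passed as higher (0.15, limma adjusted p = 0.0306), and with total-read scaling Hnrnpa1 passed as lower (-0.88, limma adjusted p = 0.032). Without nanoparticle 1 the list had 5 higher and 2 lower, and with total-read scaling 1 higher and 9 lower.

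Nuclear speckle proteins, found in the same bodies as Malat1, had 2 higher and 1 lower of 17 (median -0.08). Clk4 and Clk1, kinases of splicing factors, rose from 4.01 ± 0.184 to 5.88 ± 0.881 FPKM and from 4.76 ± 0.467 to 6.73 ± 0.680 FPKM (SD, n = 3 each; limma adjusted p = 0.030 and 0.032). Pnn, a splicing-associated speckle protein gene, fell from 8.21 ± 0.555 to 5.43 ± 0.878 FPKM (limma adjusted p = 0.021). The list had 4 higher and 7 lower without nanoparticle 1, and 0 higher and 6 lower with total-read scaling, where neither kinase passed.

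Other noncoding RNAs in the same libraries passed the test. Of 26 listed, 15 had a row and 8 were tested. Of the 8 tested, 4 were higher and 0 lower (median 0.36). Mir155hg, Ptgs2os2 and Mir17hg met the filter only through the nanoparticle libraries, while Pvt1, lower with nanoparticles, did not meet it. The filter thus shapes this count and median. Mir155hg, the host of the immune microRNA miR-155, was at 0.630, 0.387 and 0.635 FPKM in vehicle and at 55.0, 32.1 and 24.4 FPKM with nanoparticles (log2 change 4.55, SE 0.285, limma adjusted p = 0.00016). Ptgs2os2, the lncRNA beside the cyclooxygenase gene Ptgs2, rose from 0.288, 0.405 and 0.494 FPKM to 39.2, 12.4 and 13.4 FPKM (log2 change 3.83, SE 0.417, limma adjusted p = 0.0011). Both were highest in nanoparticle 1, and both also passed without it and with total-read scaling. Mir22hg rose from 34.3, 29.6 and 33.5 FPKM to 43.5, 59.2 and 62.7 FPKM, and Mir17hg from 0.982 ± 0.121 to 1.69 ± 0.126 FPKM (SD, n = 3 each; limma adjusted p = 0.016 and 0.017). Neither passed with total-read scaling. The list counts were 5 higher and 2 lower without nanoparticle 1, and 2 higher and 0 lower with total-read scaling.

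**Figure D4:**
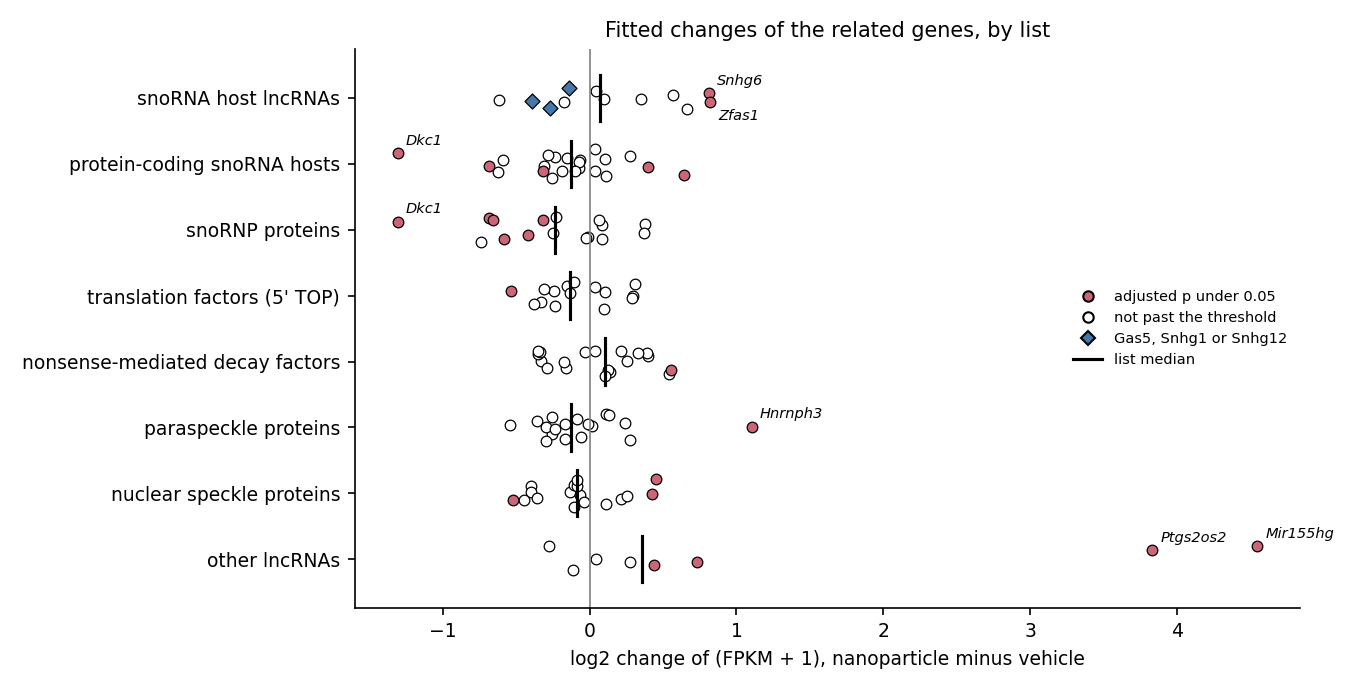
Log2 change of FPKM + 1, nanoparticle minus vehicle, for each tested gene of 8 lists (rows; a gene may be in more than 1 list). Filled circles passed an adjusted p of 0.05, open circles did not, blue diamonds are Gas5, Snhg1 and Snhg12, and vertical bars are list medians; Mir155hg (4.55) and Ptgs2os2 (3.83) lie far to the right.

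For each of the 5, the 3 tested genes with the most similar profile were taken, by Euclidean distance between log2(FPKM + 1) values centred on their mean over the 6 libraries. This is a description over 6 libraries that share their treatment groups. For Malat1 they were Mthfd1l, a mitochondrial folate enzyme gene (distance 0.207), Tm4sf19 (0.255) and Xist, the noncoding RNA of X inactivation (0.278). Xist was at 25.7, 25.6 and 27.9 FPKM in vehicle and at 46.0, 15.3 and 12.5 FPKM with nanoparticles, an order shared with Malat1 because the gene was chosen for its similar profile. For Neat1 they were Mtmr2 (0.0651), Zfp790 (0.0826) and P2ry2, a receptor for extracellular nucleotides (0.0978). For Gas5 they were Erp29, an endoplasmic reticulum folding factor gene (0.0790), Pigx (0.0886) and Rpl22l1 (0.0933), and Erp29 was at 18.3 to 19.3 FPKM in vehicle and at 9.50, 17.9 and 22.8 FPKM with nanoparticles. For Snhg1 they were the RNA-binding protein gene Hnrnpa2b1 (0.0635), Traf4 (0.0941) and the ribosome assembly gene Pes1 (0.103), and for Snhg12 Efemp2 (0.0905), Fam118a (0.108) and Tbpl1 (0.114). The 3 genes nearest to Malat1 were farther from it than those of any other member, whose distances were at most 0.114. This distance grows with the size of the changes, and Malat1 had the widest nanoparticle span of the 5 (2.08 on the log2 scale). By Pearson correlation its 3 genes were as close (0.991 to 0.995) as those of the other members (0.964 to 0.996).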

How the data were processed

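The 6 libraries were made from 1 µg of total RNA each with a NEBNext Ultra II kit, per the labels' protocols. The submitters' processing notes name CASAVA, STAR 2.5, HTSeq, edgeR 3.16.5, DESeq2 and the builds mm10 and hg19, with no role or order. How ribosomal RNA was removed, the strand setting and the normalization are not given in the sources used here. The authors deposited 2 tables with 140388 identical values, of which 1 is named for read counts. The deposited values are FPKM, made by the authors from read counts divided by merged exon length and by 1 scale per library, as the values themselves show. Multiplied by the merged exon length in GENCODE M21 (GRCm38) and divided by 1 scale per library, 95.8% to 96.1% of values above 0 were whole reads (within 0.01), including all values of the 5 RNAs. For 482 abundant genes another length gave whole reads.

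Groups came from the sample titles. limma 3.58.1 (R 4.3.3) was fitted to log2(FPKM + 1), with a mean-variance trend, over all 10682 genes that reached 1 FPKM in 3 or more libraries, and p-values were adjusted by Benjamini and Hochberg with a threshold of 0.05. The scale understates changes of low genes. Ratios were compared with exact permutation tests. The script was tested on simulated data. Alternatives were 15 planned settings and limma-voom on recovered reads, chosen after seeing the data; array weights were fitted gene by gene because the default did not converge. The 5 RNAs and the lists were chosen with earlier results of these data known. Genes named besides the 5 were up to 4 per list with the smallest adjusted p past the threshold (the 2 most abundant where fewer than 2 passed), the 3 nearest profiles per RNA, and the adjacent annotated genes, some of which are not reported here. Figures were drawn with matplotlib 3.10.9 under Python 3.11.15.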

Additional observations from a re-analysis of the deposited data

How the results depend on the processing

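The genes past the threshold numbered 3550 with all libraries, 1817 higher and 1733 lower. Array weights gave 7237 (3773 and 3464), and the fits that left out 1 library gave 2141 to 6923 (1114 to 3660 higher, 1027 to 3263 lower). Higher and lower genes were 881 and 4307 with equal sums of FPKM, 1108 and 3613 with total recovered reads, and 1078 and 3674 with limma-voom on recovered reads; the scaling itself moves the median of all genes. With at least 5 FPKM in 3 libraries 975 were lower, and Snhg1 and Snhg12 dropped out of the test. Of the 5 RNAs, 0 passed with all libraries, 3 with equal sums of FPKM, 1 with total recovered reads, 2 with array weights, 1 with limma-voom, and 0 to 2 when 1 library was left out.

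For Neat1 the log2 change was negative with equal sums of FPKM (-0.38), total recovered reads (-0.26), array weights (-0.058) and limma-voom (-0.27), and ran from -0.077 to 0.16 with 1 library left out. For Malat1 it passed with array weights (-0.85), and ran from -1.03 to 0.012 with 1 library left out. For Gas5 it passed with equal sums of FPKM (-0.69), and ran from -0.52 to 0.053. For Snhg1 it passed with equal sums of FPKM (-0.75), total recovered reads (-0.66), array weights (-0.30) and limma-voom (-0.84), and ran from -0.47 to -0.26. Snhg12 passed with equal sums of FPKM (-0.43), was at -0.56 with limma-voom without passing, and ran from -0.23 to -0.032. The Gas5 to Snhg1 log2 ratio difference ran from -0.053 (without nanoparticle 3) to 0.31. The cause was not tested.

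Among the 27 other named genes, signs changed with equal sums of FPKM for Eif4a2 (-0.055), Tpt1 (-0.36), Eif4a3 (-0.42) and Trnau1ap (-0.17), with total recovered reads for Tpt1 (-0.24), Eif4a3 (-0.30) and Trnau1ap (-0.057), with limma-voom for Tpt1 (-0.24), Eif4a3 (-0.31) and Trnau1ap (-0.066), and with array weights for Eef1a1 (0.12) and Hnrnpk (0.14). With 1 library left out, values ran from -0.44 to 0.14 for Eef1a1, -0.090 to 0.15 for Hnrnpk, -0.078 to 0.38 for Tpt1, -0.10 to 0.29 for Eif4a3 and -0.35 to 1.28 for Gm27702.

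Deviations of same-numbered libraries from their group means had correlations of 0.07, 0.11 and -0.06. Libraries with unlike numbers were not compared, and the labels do not say whether the numbers pair the libraries. Pairing was therefore not settled. With the replicate block 2785 genes passed and 0 of the 5 RNAs. The read totals limit Snhg12 most.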

Other observations

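Pvt1, the noncoding RNA gene next to Myc, was below the filter and not tested. It was at 1.05, 0.836 and 1.16 FPKM in vehicle and at 0.149, 0.397 and 0.438 FPKM in nanoparticle libraries 1 to 3, so its groups did not overlap, as was the case for 52.1% of tested genes. Tug1, a widely expressed lncRNA, was at 4.10 to 4.29 FPKM in vehicle and at 6.53, 3.66 and 3.33 FPKM with nanoparticles, with nanoparticle 1 on the high side as for Malat1. Firre, a nuclear lncRNA, was at 2.86 to 3.23 FPKM in vehicle and at 3.27, 2.18 and 1.72 FPKM with nanoparticles. Snhg5, a snoRNA host, was at 4.32 to 5.45 FPKM in vehicle and at 1.27, 3.11 and 4.50 FPKM with nanoparticles, with nanoparticle 1 on the low side as for Gas5. Tug1, Firre and Snhg5 were tested and did not pass (limma adjusted p = 0.893, 0.273 and 0.186). These 4 genes were chosen after their values were seen.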
